A study of Mus musculus with 11 samples.

Results

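The genes described here are 9 of the tricarboxylic acid (TCA) cycle in mitochondria and its entry, taken by symbol from the tables of single-cell values (Cs, Idh3a, Ogdh, Dlst, Sucla2, Sdha, Fh1, Mdh2 and Dlat). Dlat belongs to pyruvate dehydrogenase, which feeds the cycle, and the others encode enzymes of the cycle or their subunits. All 9 are among the 18667 genes present in the tables of all 4 ages. The study captured cells of the sensory epithelium of the mouse cochlea in droplets (10x Chromium) and sequenced their transcripts. Transcripts were tagged on capture with a unique molecular identifier (UMI), so that molecules rather than reads are counted. There are 11 libraries of wildtype CD1 mice, 2 at embryonic day 14 (E14), 3 at E16, 4 at postnatal day 1 (P1) and 2 at P7, the last numbered 4 and 5. Each library was made from the pooled cochleae of several animals of either sex, and no animal received a treatment. The 30634 cells comprise 5253 of E14, 7961 of E16, 14043 of P1 and 3377 of P7 mice.

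The TCA cycle oxidises the acetyl group that pyruvate dehydrogenase makes from pyruvate. Its dehydrogenases pass electrons to the respiratory chain, and its intermediates are drawn off for the synthesis of amino acids, lipids and haem. Hair cells (HCs), the mechanosensory cells of the cochlea, have a high demand for ATP and are rich in mitochondria, whereas the supporting cells (SCs) around them hold the epithelium together and buffer ions and transmitter. HCs of the cochlea are of 2 kinds, the inner hair cells (IHCs), which signal to the auditory nerve, and the outer hair cells (OHCs), which amplify sound.

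The deposited tables do not name cell types, and cells were placed by the number of marker genes with at least 1 UMI. HCs had 6 or more of 16 HC markers and at most 4 of 14 SC markers, SCs had 5 or more SC markers and at most 2 HC markers, and the remaining epithelium and other tissue, called other cells, had at most 2 of each. The SC gate was aimed at the SCs known as pillar and Deiters' cells, and not at other kinds of SC. At E16 it also takes in lateral prosensory cells, the progenitors of these SCs and of OHCs. E16 SCs may thus include progenitors, and comparisons of SCs from E16 to P1 span this difference. E16 gave 541 HCs, 325 SCs and 6517 other cells, P1 gave 989, 1053 and 11138, and P7 gave 218, 192 and 2602, and 7.26%, 6.15% and 10.8% of the cells were left out. At the 3 ages 63, 14 and 5 cells had a number of HC markers at the limit or 1 below it, and 364, 393 and 128 cells a number of SC markers there. No doublet caller was run, and cells with 6 or more HC markers and over 4 SC markers are among those left out. None of the 9 genes took part in the choice. HC markers held back from the choice summed to 4572 to 5776, 9137 to 10514 and 10387 to 10698 CPM (each cell's UMIs scaled to a total of 1000000) in HCs at E16, P1 and P7 and to 246 to 356, 233 to 278 and 139.6 to 154 CPM in SCs. SC markers held back summed to 918 to 1806 CPM in SCs at E16 and 2843 to 4329 CPM at P1. In other cells they summed to 656 to 755 CPM at E16 and 1568 to 2154 CPM at P1. The order turned at P7, with 818 to 1234 CPM in SCs and 2008 to 2043 CPM in other cells. At P7 the second set of markers thus did not set the cells called SCs apart from other cells, and P7 SCs here means cells that met the first set. E14 has no values by class and enters only as whole libraries.

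Classes differed in depth as well as in kind. The median UMIs per cell at P1 were 9497, 7384, 8272 and 5306 in the HCs of libraries 1 to 4, 7490, 5860, 6258 and 4539 in SCs and 5294, 5059, 5479 and 3665 in other cells. Values are means over the cells of 1 class and library, in CPM, which removes the total per cell. When the markers were read after drawing each cell down to 1500 UMIs, HCs against SCs at P1 had 6 members past the threshold in place of 5. The same reading at E16 gave 0 in place of 2 in HCs against SCs and 0 in place of 2 in HCs against other cells, and the change of the difference between HCs and SCs from P1 to P7 gave 0 in place of 1. The part of depth was not tested further. Between 1 and 36 cell barcodes were shared by each of the 55 pairs of libraries. Blood-cell markers summed to 1494 CPM in the E16 HCs of library 2 and to 31.7 and 39.8 CPM in the other libraries. Glial markers summed to 953 CPM in the P7 SCs of library 5 and to 12.3 CPM in library 4, and in HCs to 243 and 7.89 CPM. Mesenchyme markers (6 collagens and matrix genes) summed to 999 to 1222 CPM in P7 SCs, mostly Lum and Dcn, and to 39.6 to 118 CPM in P7 HCs. Their part in HCs against SCs at P7 was not tested, other than by leaving out either library. Neuronal markers summed in HCs to 235 to 261 CPM at E16, 151 to 515 CPM at P1 and 171 to 241 CPM at P7. In SCs they summed to 0 to 16.5, 6.16 to 33.1 and 38.2 to 40.7 CPM, and their part was not tested.

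All 9 are protein-coding genes, and their positions are given below on GRCm38 from the GENCODE annotation. Sucla2, Sdha and Fh1 overlap other genes on the opposite strand, and Cs holds the small RNA gene Gm23182 on its own strand. Whether strand was used in counting is not given in the sources used here, and without it the transcripts of overlapping genes cannot be told apart.

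Summed over the 9 genes, Dlat among them, transcripts were highest in HCs at every age. HCs held 1033, 1103 and 1202 CPM in E16 libraries 1 to 3, 1644, 1453, 1504 and 1626 CPM in P1 libraries 1 to 4 and 1945 and 1568 CPM in P7 libraries 4 and 5. SCs held 895, 896 and 921, then 1111, 1061, 1061 and 1148, and then 1182 and 1186 CPM. Other cells held 753, 793 and 864, then 989.7, 968, 974 and 1015, and then 1428 and 1307 CPM. At each age the lowest HC library lay above the highest SC library and the highest library of other cells. SCs lay above other cells at E16 and P1 and below them at P7. The sum weights each member by its own level, and the members are therefore given one by one in the order of the reactions, with the libraries always in the order just used.

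**Figure D1:**
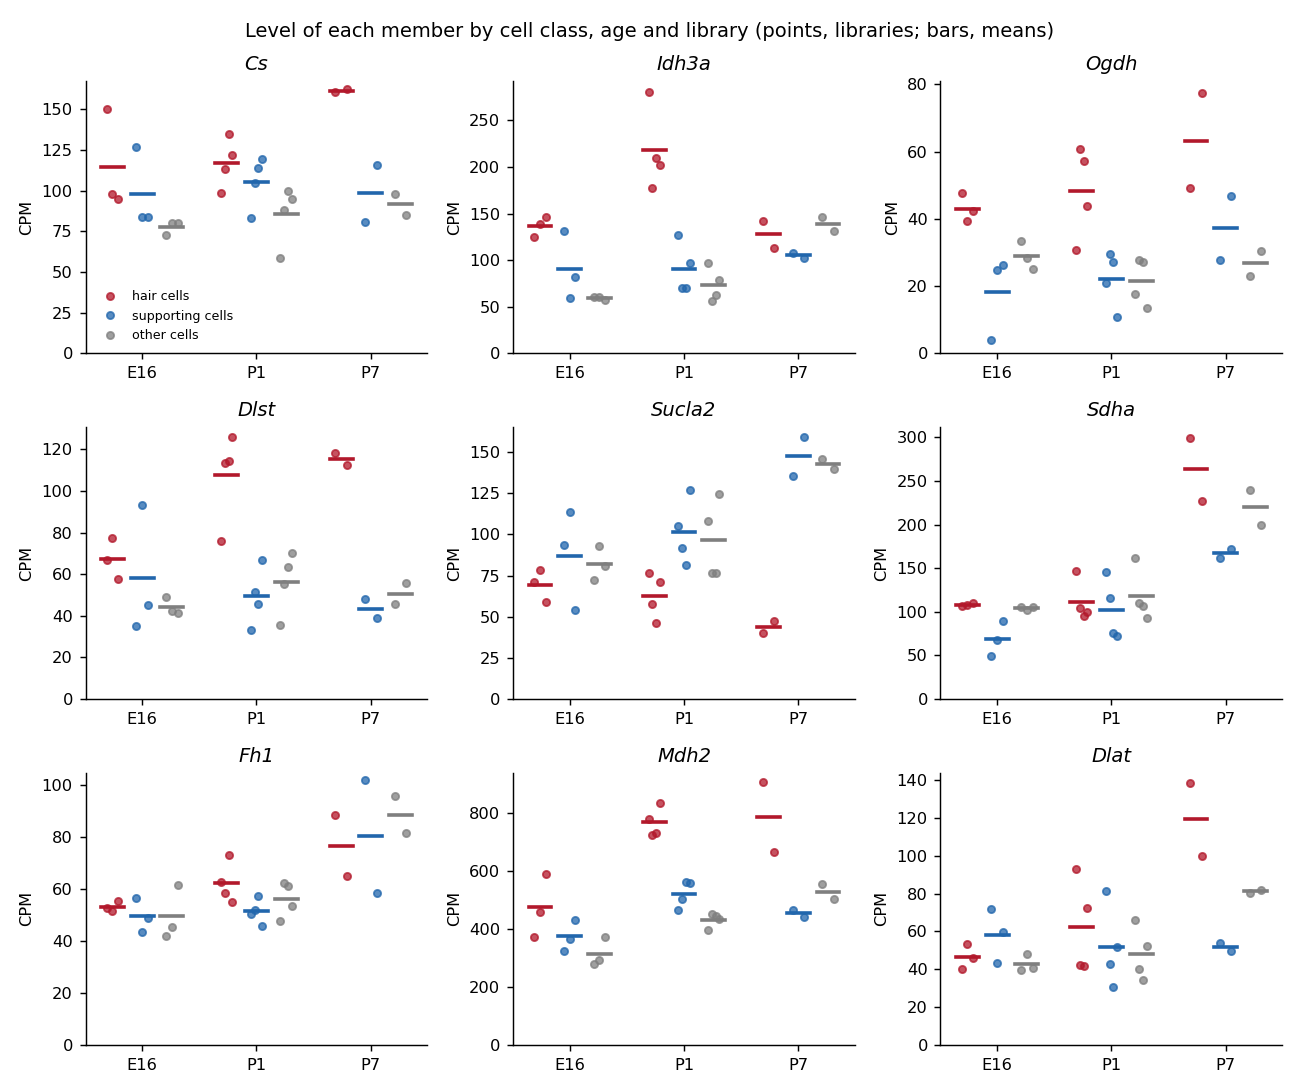
Levels of the 9 genes in hair, supporting and other cells at E16, P1 and P7, in CPM on linear axes that start at 0. Each point is 1 library, and bars are means. The Idh3a points of HCs at P1, 177 to 281 CPM, stand clear of the SCs, 69.8 to 127 CPM, whereas the Sucla2 points of HCs lie below those of SCs at P1 and P7.

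Where members differed between HCs and SCs they were higher in HCs, led by Idh3a and Dlst at P1 and by Dlst and Dlat at P7, apart from Sucla2, which was lower at both ages. A large share of all genes differed between these classes, and the counts are given beside that share. In limma with Benjamini-Hochberg adjustment over all genes tested, 2 members passed a threshold of 0.05 at E16, both higher in HCs, where 13.2% of all genes did so. At P1, 4 members were higher in HCs and 1 lower, beside 34.1% of all genes higher and 32.0% lower. At P7, 6 were higher and 1 lower, beside 28.9% and 27.3%. The median log2 fold change of the 9 was 0.27, 0.23 and 0.63 at the 3 ages, against medians of 0.03, 0.02 and 0.04 over all genes tested. The counts of higher members at E16 and P1 were near the share of all genes, and that at P7, 6 of 9, lay above it but fell to 3 without library 4 and to 5 without library 5. The members were chosen with earlier results of these data known. The counts of lower members at P1 and P7, 1 of 9 each, lay below the share.

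Dlat (chr9:50634633-50659780, minus strand) encodes the acetyltransferase core (E2) of the pyruvate dehydrogenase complex, through which carbon enters the cycle. HCs held 40.0, 53.2 and 45.7 CPM at E16 and 93.1, 42.5, 41.7 and 72.2 CPM at P1, against 72.0, 43.3 and 59.6 and 81.5, 42.9, 30.4 and 51.9 CPM in SCs. The classes overlapped at both ages, with log2 fold changes of -0.26 (adjusted p = 0.463) and 0.23 (adjusted p = 0.0837). At P7 HCs held 139 and 99.9 CPM and SCs 54.1 and 49.8 CPM, with no overlap. The log2 fold change was 1.05 ± 0.19 (SE, adjusted p = 0.000766).

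Cs (chr10:128337734-128362479, plus strand) encodes citrate synthase, which joins the acetyl group to oxaloacetate. Its levels overlapped between HCs and SCs at E16 (150.2, 98.2 and 94.7 against 127, 83.5 and 84.1 CPM) and at P1 (98.4, 114, 135 and 122 against 83.3, 105, 114 and 119 CPM). Within each library of these ages HCs were higher than SCs, but neither difference passed, at 0.20 (adjusted p = 0.508) and 0.14 (adjusted p = 0.194). At P7 HCs held 160.5 and 162 CPM and SCs 81.0 and 116 CPM. The HC libraries were nearly equal and both above the SC libraries, with a log2 fold change of 0.68 ± 0.19 (SE, adjusted p = 0.0109).

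Idh3a (chr9:54586334-54604661, plus strand) encodes the catalytic subunit of the NAD-dependent isocitrate dehydrogenase, which makes 2-oxoglutarate. At P1 HCs held 281, 177, 210.0 and 202 CPM and SCs 127, 69.8, 69.8 and 97.4 CPM. The lowest HC library lay above the highest SC library, and the log2 fold change was 1.19 ± 0.10 (SE, adjusted p = 6.74e-08), the largest of the 9 at that age. At E16 the levels were 125, 139 and 146 CPM in HCs and 131, 59.7 and 81.7 CPM in SCs, with SC library 1 inside the HC range. The E16 difference was 0.60 (adjusted p = 0.0867). At P7 HCs held 143 and 113 CPM, SCs 108 and 102 CPM and other cells 146 and 131 CPM. The P7 difference between HCs and SCs did not pass, at 0.25 with a 95% interval of -0.11 to 0.62 (adjusted p = 0.215). The other subunits of this enzyme, Idh3b and Idh3g, had log2 fold changes at P1 of 0.13 (adjusted p = 0.264) and 0.39 (adjusted p = 0.00351).

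Ogdh (chr11:6291633-6356642, plus strand) and Dlst (chr12:85110833-85134845, plus strand) encode the dehydrogenase (E1) and succinyltransferase (E2) subunits of the 2-oxoglutarate dehydrogenase complex, which makes succinyl-CoA. Ogdh in HCs was 30.9, 60.8, 57.3 and 43.7 CPM at P1, against 21.0, 29.6, 27.1 and 10.9 CPM in SCs. The lowest HC library and the highest SC library almost met, but within each library HCs were higher, and the log2 fold change was 0.86 ± 0.14 (SE, adjusted p = 8.04e-05). At P7 the levels were 49.2 and 77.3 and 27.7 and 46.9 CPM, a difference of 0.63 ± 0.22 (SE, adjusted p = 0.0284). That call was lost under 7 of 13 alternative settings. At E16, with 47.5, 39.3 and 42.2 CPM in HCs and 3.97, 24.9 and 26.2 CPM in SCs, the difference was 1.02 (adjusted p = 0.0521). The low SC value of library 1 is 1 UMI in 39 cells. In the same SCs the values of Sdha, Fh1 and Dlst rest on 5, 5 and 6 UMIs.

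Dlst differed more evenly across libraries. HCs held 75.8, 114, 114 and 126 CPM at P1 and 118 and 113 CPM at P7, against 33.2, 51.5, 45.7 and 67.1 and 48.0 and 39.0 CPM in SCs. No library of one class fell in the range of the other at either age. The log2 fold changes were 0.99 ± 0.10 (SE, adjusted p = 7.9e-07) at P1 and 1.23 ± 0.20 (SE, adjusted p = 0.000347) at P7. At E16 the classes overlapped, with 67.0, 77.4 and 57.5 CPM in HCs and 35.0, 93.5 and 45.4 CPM in SCs and a log2 fold change of 0.27 (adjusted p = 0.493). The third subunit of this complex, encoded by Dld and shared with pyruvate dehydrogenase, had a log2 fold change of 0.01 (adjusted p = 0.928) at P1.

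The sequences before the start sites of Dlat, Cs and Dlst are shown because these members differed between HCs and SCs at P7 and their windows lie wholly outside the gene's own span. Ogdh, Sucla2, Sdha and Mdh2 also differed at P7, but some or all of their windows overlap the span of the gene, and they are not shown. They are the 250 bases upstream, 5′ to 3′ on the strand of the gene, from RefSeq on GRCm38.p6 (chr9:50659781-50660030 on the minus strand, chr10:128337477-128337726 and chr12:85110583-85110832 on the plus strand). Capitals mark the GC box, GGGCGG or its reverse complement CCGCCC.
Dlat: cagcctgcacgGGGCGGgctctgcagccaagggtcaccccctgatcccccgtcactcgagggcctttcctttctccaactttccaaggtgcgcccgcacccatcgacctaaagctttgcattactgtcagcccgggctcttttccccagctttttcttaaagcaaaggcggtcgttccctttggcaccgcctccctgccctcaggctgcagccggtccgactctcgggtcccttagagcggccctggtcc
Cs: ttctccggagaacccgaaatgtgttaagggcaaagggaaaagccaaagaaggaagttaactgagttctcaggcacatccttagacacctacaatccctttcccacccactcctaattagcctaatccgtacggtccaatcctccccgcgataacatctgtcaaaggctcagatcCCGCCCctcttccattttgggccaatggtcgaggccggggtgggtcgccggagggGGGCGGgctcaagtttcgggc
Dlst: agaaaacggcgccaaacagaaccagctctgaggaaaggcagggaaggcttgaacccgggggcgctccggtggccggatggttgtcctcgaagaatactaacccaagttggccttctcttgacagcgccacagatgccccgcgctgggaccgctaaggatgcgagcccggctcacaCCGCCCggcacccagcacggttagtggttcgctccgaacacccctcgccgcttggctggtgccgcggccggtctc
An exon of a noncoding transcript of Prox2, on the minus strand, overlaps the Dlst window. RefSeq promoters were matched for 8 of the 9 members. The GC box was found, on either strand, before at least 1 start of 7 of these 8 and of 35.4% of the genes in the RefSeq table. The core of the NRF1 motif (TGCGCA) was found for Ogdh and Sdha and for 7.36% of genes. The oestrogen-related receptor core site (AAGGTCA) and the GABPA motif (CCGGAAG), which were in the windows of 4.70% and 7.83% of genes, were in no member's window.

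Sucla2 (chr14:73525319-73596142, plus strand) went the other way. It encodes the beta subunit of the ADP-forming succinyl-CoA ligase, which makes ATP directly from succinyl-CoA. SCs held 105, 91.5, 81.5 and 127 CPM at P1 and 135 and 159 CPM at P7, and other cells 108, 76.6, 76.7 and 125 and 146 and 139.9 CPM. HCs held 76.3, 57.5, 46.0 and 71.2 CPM at P1 and 40.3 and 47.3 CPM at P7. Each HC library was below each library of the other classes at these ages, though at P1 the highest HC library came close to the lowest of the other cells. The log2 fold changes against SCs were -0.62 ± 0.10 (SE, adjusted p = 8.32e-05) and -1.55 ± 0.18 (SE, adjusted p = 2.11e-05). At E16 the levels overlapped, 70.8, 78.1 and 59.2 CPM in HCs and 93.7, 114 and 53.8 CPM in SCs, with a log2 fold change of -0.24 (adjusted p = 0.439). Suclg2, which encodes the beta subunit of the GDP-forming ligase, was also lower in HCs, at -0.53 (adjusted p = 0.00198) at P1 and -2.22 (adjusted p = 3.05e-05) at P7. Suclg1, the alpha subunit common to both ligases, was higher in HCs at 0.73 (adjusted p = 3.17e-06) at P1.

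Sdha (chr13:74322254-74350280, minus strand) encodes the flavoprotein of succinate dehydrogenase, which is also complex II of the respiratory chain. At E16 HCs held 107, 107 and 110.4 CPM and SCs 49.9, 67.4 and 89.1 CPM, a log2 fold change of 0.62 ± 0.19 (SE, adjusted p = 0.039). At P1 the classes overlapped, 147, 104, 95.2 and 99.6 against 146, 116, 75.3 and 71.9 CPM, and the difference was 0.15 (adjusted p = 0.252). At P7 the levels were 299 and 227 CPM in HCs and 162 and 172 CPM in SCs, with a log2 fold change of 0.61 ± 0.16 (SE, adjusted p = 0.00737). Of the other subunits, Sdhc had 0.92 (adjusted p = 5.94e-07) at P1, Sdhd 0.38 (adjusted p = 0.00143) and Sdhb 0.10 (adjusted p = 0.268).

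Fh1 (chr1:175600374-175625635, minus strand), which encodes fumarase, did not pass in HCs against SCs at any age. HCs held 52.7, 51.6 and 55.5 CPM at E16, 62.7, 58.4, 73.0 and 55.1 CPM at P1 and 88.4 and 64.9 CPM at P7, and SCs 56.5, 43.6 and 48.9, then 50.4, 52.1, 57.2 and 45.9, and then 102 and 58.7 CPM. The log2 fold changes had 95% intervals of -0.38 to 0.56, 0.01 to 0.46 and -0.45 to 0.39, which hold differences of either sign at E16 and P7. At P1 HCs were higher than SCs within each library.

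Mdh2 (chr5:135778480-135790398, plus strand) encodes the mitochondrial malate dehydrogenase, which restores oxaloacetate and also serves the malate-aspartate shuttle. HCs held 372, 459 and 591 CPM at E16, 778, 725, 732 and 834 CPM at P1 and 907 and 664 CPM at P7. SCs held 325, 367 and 432, then 464, 502, 561 and 557, and then 464 and 443 CPM. The ranges overlapped at E16 and not at P1 or P7, and HCs were higher in 9 of 9 libraries. The log2 fold changes were 0.32 ± 0.10 (SE, adjusted p = 0.0474), 0.55 ± 0.08 (SE, adjusted p = 1.45e-05) and 0.76 ± 0.14 (SE, adjusted p = 0.000803).

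These calls differed in how firmly they held. At P1 each of the 5 held without any single library. At E16 both calls were lost without library 2 (0 of 9 called), whose HCs held blood-cell markers, and without library 3 (0 of 9 called). At P7 the count fell from 7 to 4 without library 4 and was 6 without library 5, the library with the glial markers, whose part in the result was not tested beyond this.

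**Figure D2:**
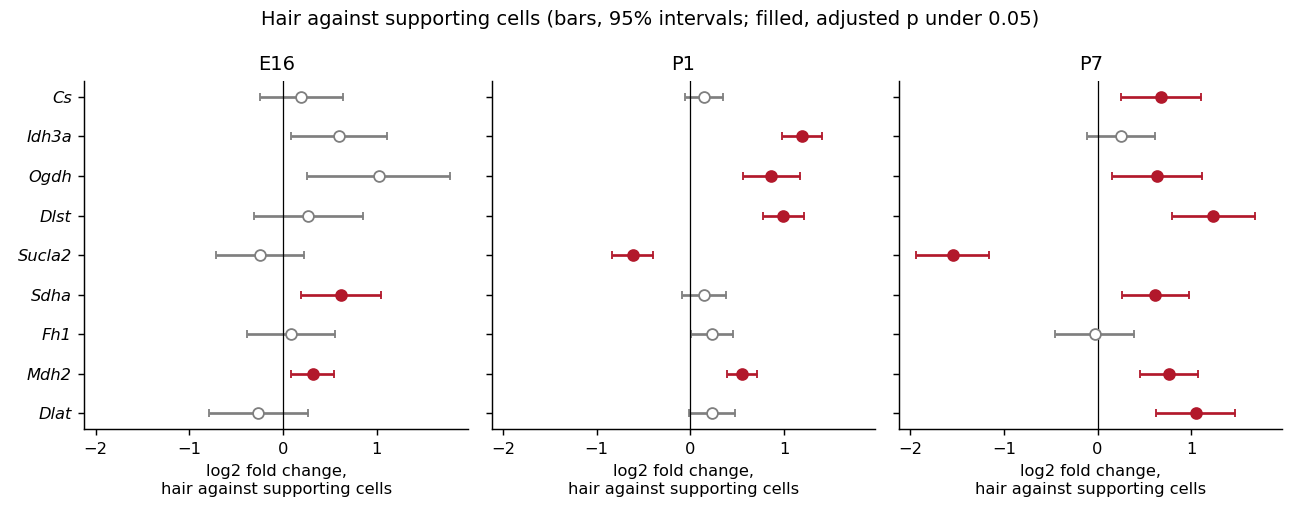
Log2 fold change of each member in hair against supporting cells at E16, P1 and P7, on a linear axis. Points are limma estimates, bars 95% intervals, and filled points passed an adjusted p of 0.05. Sucla2 lies left of 0 at P1 (-0.62) and P7 (-1.55), while Dlst (0.99 and 1.23) and Mdh2 (0.55 and 0.76) lie right of it.

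Other cells served as a second comparison, which shares its HCs with the first. At E16, Idh3a (1.08 ± 0.23 SE, adjusted p = 0.00591) and Mdh2 (0.57 ± 0.10 SE, adjusted p = 0.00208) were higher in HCs, 2 of 9 members beside 12.2% of all genes. Without library 2, the library with blood-cell markers, the count was 1, and without library 3 it was 0. At P1, 6 members were higher and 1 lower, beside 39.1% and 29.8% of genes. The log2 fold changes were 1.46 for Idh3a, 0.88 for Ogdh, 0.84 for Dlst, 0.81 for Mdh2, 0.43 for Cs and 0.28 for Dlat, and -0.54 for Sucla2, with adjusted p values of 6.96e-09 to 0.0371. Dlat (adjusted p = 0.0371) was lost under 8 of 15 alternative settings. At P7, 5 were higher (Dlst 1.05, Ogdh 0.97, Cs 0.76, Mdh2 0.55, Dlat 0.49) and Sucla2 was lower (-1.51), with adjusted p values of 2.39e-05 to 0.047, beside 31.0% and 27.9% of genes. Dlat was lost under 9 of 13 alternative settings, with adjusted p values of up to 0.542. The count was 4 without library 4 and 3 without library 5. The medians of the 9 were 0.45, 0.43 and 0.49, against -0.02, 0.10 and 0.05 over all genes.

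In SCs against other cells few members passed. At P1, Cs (0.28 ± 0.09 SE, adjusted p = 0.0316) and Mdh2 (0.26 ± 0.08 SE, adjusted p = 0.0146) were higher in SCs, 2 of 9 beside 21.2% of genes. Under median-ratio scaling, which turned the 1931 higher and 1185 lower genes of this comparison into 1468 and 1601, 1 member passed. The count was 0 without library 3 and 1 without library 1, 2 or 4. No member passed in limma at E16 or P7, where 8.57% and 20.2% of genes did in either direction and where 2 and 3 members had an unadjusted p under 0.05. The lowest unadjusted p was that of Sdha at E16 (-0.57, adjusted p = 0.108) and of Dlat at P7 (-0.56, adjusted p = 0.0633), both with the lower level in SCs.

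Within HCs, cells were called OHCs or IHCs where at least 2 markers of that kind, of 11 and 8, had a UMI and outnumbered those of the other kind. At P1, Cs was the only member that passed, beside 6.22% of genes higher in OHCs. OHCs held 109, 128, 144 and 126 CPM and IHCs 90.3, 91.5, 72.6 and 51.0 CPM, without overlap. The log2 fold change was 0.68 ± 0.17 (SE, adjusted p = 0.00696), and the call was lost without library 3 (adjusted p = 0.073) and without library 4 (adjusted p = 0.0757). At P7 OHCs held 193 and 174 CPM and IHCs 121 and 155 CPM, a log2 fold change of 0.39 (adjusted p = 0.432).

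Dlst lay on the other side. IHCs held 112, 108, 118 and 175 CPM at P1 and 151 and 167 CPM at P7, OHCs 65.4, 102, 113 and 119 and 91.2 and 81.4 CPM. The ranges overlapped at P1 and not at P7, and within each library of both ages OHCs were lower. The log2 fold changes of OHCs against IHCs were -0.34 (adjusted p = 0.21) and -0.82 (adjusted p = 0.0519), neither past the threshold. Ogdh was 28.5, 60.9, 56.8 and 42.0 CPM in OHCs and 32.1, 59.9, 51.2 and 54.3 CPM in IHCs at P1. Its log2 fold change was -0.07 with a 95% interval of -0.50 to 0.35 (adjusted p = 0.894). At E16 and P7 none of the 9 passed, beside 0.909% and 10.7% of genes in either direction, and 3 and 1 members had an unadjusted p under 0.05. Those of E16 were Mdh2 (-1.02, adjusted p = 0.0791), Sdha (-1.31, adjusted p = 0.512) and Cs. Cs at E16 was 165, 143 and 115 CPM in OHCs and at most 65.2 CPM in the IHCs of any library, without overlap, a log2 fold change of 1.18 (adjusted p = 0.513). Mdh2 was 62.9, 509.9 and 572 CPM in OHCs and 593, 461 and 633 CPM in IHCs, and its low value in library 1 is 3 UMIs in 12 OHCs. With 2 and 1 residual degrees of freedom at these ages, limma took the spread of each gene wholly from the trend over all genes. The E16 values rest on 12 to 46 cells of a kind in each library. At E16, markers of the epithelium next to the IHCs (Kölliker's organ) summed to 1117 to 1738 CPM in IHCs and 173 to 551 CPM in OHCs. Among them Calb1, which HCs also make, was 233 to 873 CPM in IHCs and 56.3 to 162 CPM in OHCs. Epyc was 213 to 562 and 72.9 to 217 CPM, and Otoa was 0 in both kinds. The part of these markers in the E16 values was not tested.

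**Figure D3:**
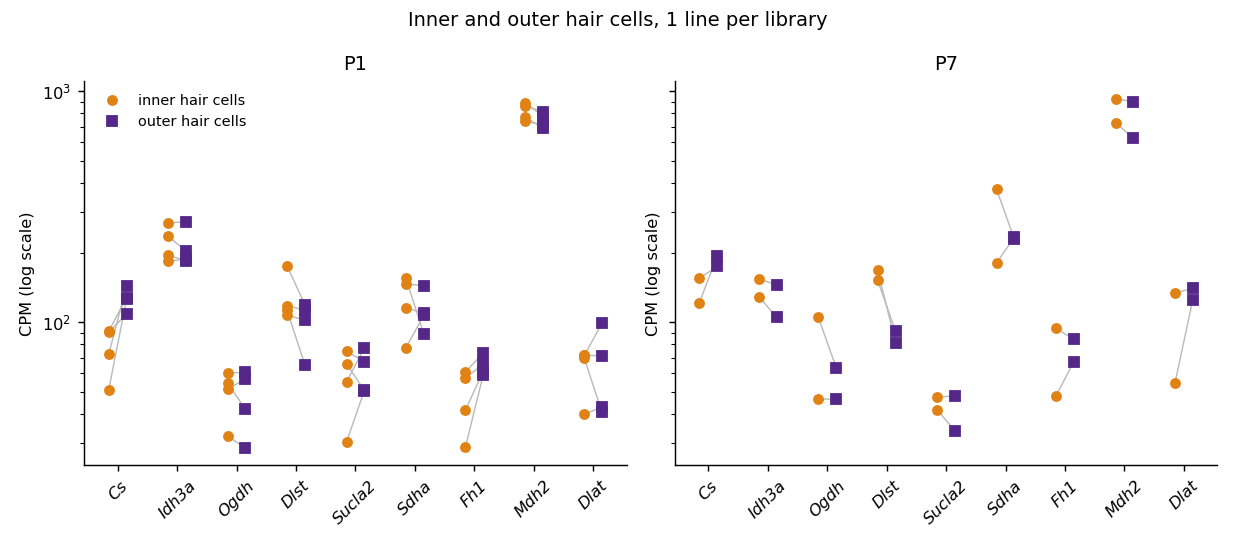
Levels of the 9 genes in inner (circles) and outer (squares) hair cells at P1 and P7, in CPM on a log axis, with a line joining the 2 kinds in each library. Cs is higher in OHCs (109 to 144 CPM) than in IHCs (51.0 to 91.5 CPM) in all 4 P1 libraries, and Dlst is lower in OHCs in both P7 libraries.

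Between ages, few members passed within a class. These comparisons run between different litters and libraries, so that age and library preparation cannot be told apart except through the spread of libraries within an age, and both use the P1 libraries. In HCs from E16 to P1, Mdh2 rose, at the levels given above, by a log2 fold change of 0.71 ± 0.22 (SE, adjusted p = 0.028), 1 of 9 members beside 11.4% of genes. Mdh2 over the same ages had log2 fold changes of 0.47, adjusted p = 0.238 in SCs, and of 0.46, adjusted p = 0.101 in other cells, neither past the threshold, and whether the classes differed in this was tested only for HCs against SCs (0.24, adjusted p = 0.553). Idh3a (0.62, adjusted p = 0.064) and Dlst (0.59, adjusted p = 0.092) did not pass in HCs. Under median-ratio scaling, which moved the median over all genes from 0.11 to about 0 and the calls from 1030 higher and 587 lower to 777 and 767, 0 members passed. Leaving out 1 library gave 0 to 2 members, and Mdh2 was lost without E16 library 1 (adjusted p = 0.168), E16 library 2 (adjusted p = 0.0949), P1 library 2 (adjusted p = 0.0596) and P1 library 3 (adjusted p = 0.0562). Markers of Kölliker's organ, the epithelium next to the IHCs, summed in HCs to 529 to 600 CPM at E16, 1182 to 3759 CPM at P1 and 3215 to 5036 CPM at P7. At P1 and P7 most of this was Calb1, a calcium buffer that HCs also make (161 to 243, 992 to 3221 and 3015 to 4805 CPM in HCs, 14.0 to 17.6 CPM in P7 SCs). In other cells Calb1 was 592 to 911 CPM at E16, 409 to 1333 CPM at P1 and 69.9 to 82.6 CPM at P7. Each of the other 5 markers in HCs was at most 205 CPM in any library, while Crabp1 was near or at 0 in every class at P7.

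From P1 to P7, Sdha rose in HCs from 147, 104, 95.2 and 99.6 CPM to 299 and 227 CPM. Both P7 libraries lay above all 4 P1 libraries, and the log2 fold change was 1.18 ± 0.26 (SE, adjusted p = 0.00265), the 1 call among 9 beside 8.59% of genes. Without P7 library 4 its adjusted p was 0.0744. Dlat (0.88, adjusted p = 0.0509) and Idh3a (-0.71, adjusted p = 0.0545) did not pass. In other cells, Sdha (0.87 ± 0.22 SE, adjusted p = 0.0146) and Idh3a (0.86 ± 0.21 SE, adjusted p = 0.0133) rose, beside 9.72% of genes. Both stood when cells of 3 or more mesenchyme, glia or blood markers were left out of other cells at every age, an alternative chosen after seeing the data (0.93, adjusted p = 0.00955 for Sdha, 0.84, adjusted p = 0.015 for Idh3a). Both were lost without P7 library 4 (adjusted p = 0.195 and 0.157) and without P7 library 5 (0.0645 and 0.0812). Idh3a in other cells was 96.7, 55.9, 62.1 and 78.8 CPM at P1 and 146 and 131 CPM at P7. Other cells are a mixture of epithelium and surrounding tissue, in whose mean fewer cells of a type and less RNA per cell cannot be told apart. Their glial markers summed to 22.4 to 29.8 CPM at P1 and 739.8 to 2731 CPM at P7, and their mesenchyme markers to 1899 to 3493 CPM at P1 and 6066 to 6108 CPM at P7. Most of the mesenchyme sum was Lum and Dcn at both ages. Col3a1 was at most 0.249 CPM at P1 and 153 to 481 CPM at P7. Col1a2 was 6.27 to 23.6 CPM at P1 and 209 to 424 CPM at P7. Col1a1 and Postn were at most 11.1 CPM at both ages.

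In SCs no member passed from E16 to P1 or from P1 to P7, beside 2.87% and 6.39% of genes in either direction, with 1 unadjusted p under 0.05 in each (Mdh2 and Sdha). The calls over all genes were 140 higher and 108 lower from E16 to P1 and 265 and 288 from P1 to P7, and under median-ratio scaling 84 and 104, and 306 and 213. Sdha in SCs was 146, 116, 75.3 and 71.9 CPM at P1 and 162 and 172 CPM at P7, a difference of 0.71 (adjusted p = 0.261). In other cells from E16 to P1 none passed, beside 9.73% of genes, and 1 member (Mdh2) had an unadjusted p under 0.05.

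**Figure D4:**
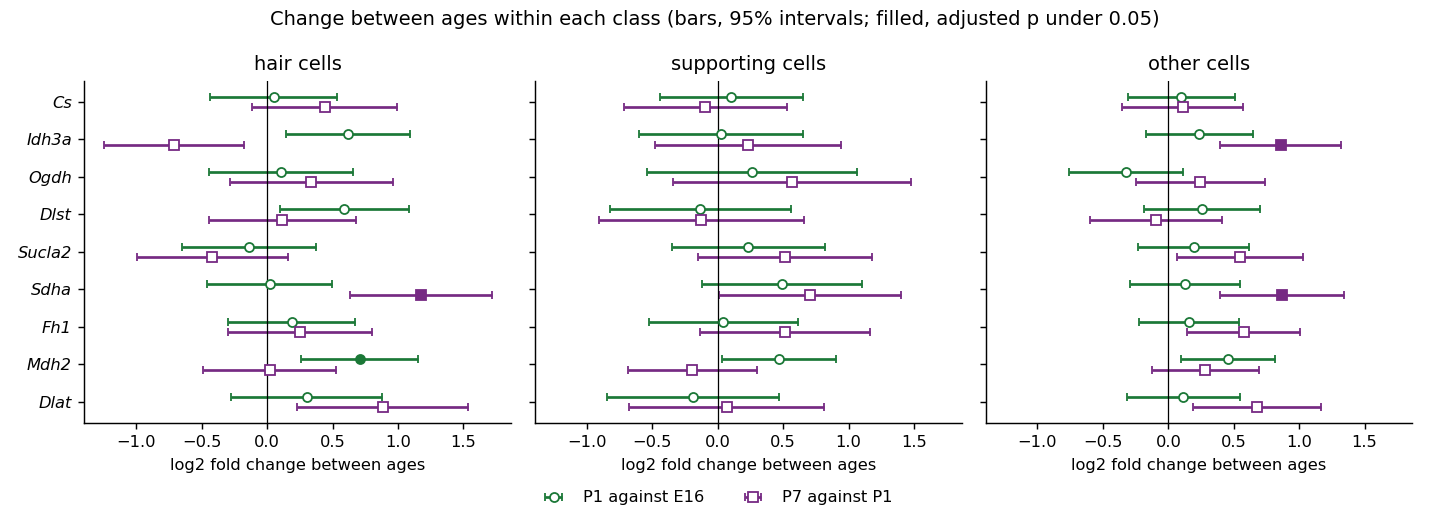
Log2 fold change of each member between ages within hair, supporting and other cells. Circles compare P1 with E16 and squares P7 with P1, bars are 95% intervals from limma, and filled symbols passed an adjusted p of 0.05. Sdha lies right of 0 from P1 to P7 in HCs (1.18) and other cells (0.87), and the estimate for Idh3a is negative in HCs (-0.71) and positive in other cells (0.86).

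Whether the difference between HCs and SCs itself changed with age was tested on the differences within each library. From P1 to P7 it changed for Sucla2 alone, by -0.93 ± 0.27 (SE, adjusted p = 0.0414) on the log2 scale, beside 6.69% of genes that moved that way. The call was lost under 10 of 15 alternative settings. Among them was the leaving out of any P1 or P7 library, with adjusted p values of 0.0625 to 0.189. The changes of Idh3a (-0.94, adjusted p = 0.0931) and Dlat (0.81, adjusted p = 0.111) did not pass, so that a call at one age and not at the other does not show for these genes that the ages differed. From E16 to P1 no member passed, beside 8.72% of genes in either direction, and 1 had an unadjusted p under 0.05 (Dlst, 0.72, adjusted p = 0.118).

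Of 10 further subunits and enzymes of the cycle, 4 were higher and 2 lower at P1, in HCs against SCs, and likewise 4 and 2 at P7, with medians of 0.14 and 0.32. Over all genes 34.1% were higher and 32.0% lower at P1 and 28.9% and 27.3% at P7, so that these counts lay near the share of all genes. The 2 highest at P1 were Sdhc and Suclg1, given above, and the 2 lowest were Suclg2 and Idh2. Idh2 encodes the NADP-dependent mitochondrial isocitrate dehydrogenase, which makes NADPH. It spanned 14.4 to 25.4 CPM in HCs and 81.6 to 219 CPM in SCs at P1, and 5.33 to 11.8 and 86.2 to 108 CPM at P7, with log2 fold changes of -2.33 ± 0.16 (SE, adjusted p = 8.84e-09) and -2.54 ± 0.23 (SE, adjusted p = 4.22e-06). The NADP-dependent enzyme was thus lower in HCs at both ages, and the NAD-dependent Idh3a higher at P1.

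Of 12 genes of the entry of pyruvate, 8 were tested at P1 and 9 at P7, and 5 were higher and 1 lower in HCs than SCs at each age, with medians of 0.47 and 0.46, where 34.1% and 28.9% of all genes were higher. At E16, 1 of 8 was higher and 1 lower, beside 13.2% of all genes higher and 1087 of 9033 lower. Against other cells at P1, 5 of 8 were higher and 3 lower, beside 39.1% and 29.8% of all genes. Mpc1, a subunit of the mitochondrial pyruvate carrier, spanned 728 to 1459 CPM in HCs and 149.9 to 224 CPM in SCs at P1, a log2 fold change of 2.44 ± 0.10 (SE, adjusted p = 2.52e-11), with 1.23 (adjusted p = 1.99e-05) at P7. Within HCs it spanned 909 to 1912 CPM in OHCs and 121 to 275 CPM in IHCs at P1. Pdhx, the E3-binding protein of pyruvate dehydrogenase, had 0.70 (adjusted p = 9.09e-05) at P1. The lowest were Pdk3 (-1.05, adjusted p = 3.44e-06) and Pdk2 (-0.27, adjusted p = 0.0959), kinases that switch pyruvate dehydrogenase off, and Pdk2 was at -0.93 (adjusted p = 0.00795) at P7. Beside Dlat, the E1 subunits Pdha1 and Pdhb had 0.65 (adjusted p = 3.83e-05) and 0.29 (adjusted p = 0.0233) at P1.

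Of 12 genes that feed or drain the cycle, 8 were tested at P1, 3 higher and 3 lower with a median of -0.06, and 9 at P7, 3 higher and 1 lower with a median of 0.23. These and the following counts of HCs against SCs stand beside 34.1% of all genes higher and 32.0% lower at P1 and 28.9% and 27.3% at P7, and those of higher genes that feed or drain the cycle lay near these shares. Glud1, which turns glutamate into 2-oxoglutarate, had 0.66 (adjusted p = 6.86e-05) at P1 and -0.33 (adjusted p = 0.155) at P7. Got2, the mitochondrial aspartate aminotransferase, had -0.75 (adjusted p = 4.75e-06), and Idh1, the cytosolic NADP-dependent isocitrate dehydrogenase, -1.03 (adjusted p = 0.000212), both lower in HCs at P1. Of 13 other genes of mitochondria (porins, chaperones, import and inner membrane proteins), 0 were higher and 7 lower in HCs at P1, with a median of -0.26, and 2 were higher and 3 lower at P7, with a median of -0.22. Against other cells at P1, 4 of these 13 were higher and 2 lower in HCs (median 0.18), beside 39.1% and 29.8% of all genes. In SCs against other cells 8 were higher and 0 lower (median 0.35), beside 21.2% of all genes higher. Of 8 regulators of mitochondrial genes, 4 were tested in HCs against SCs at P1, with 1 higher and 1 lower, and 5 at P7, with 2 higher, too few to set apart from the shares of all genes.

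**Figure D5:**
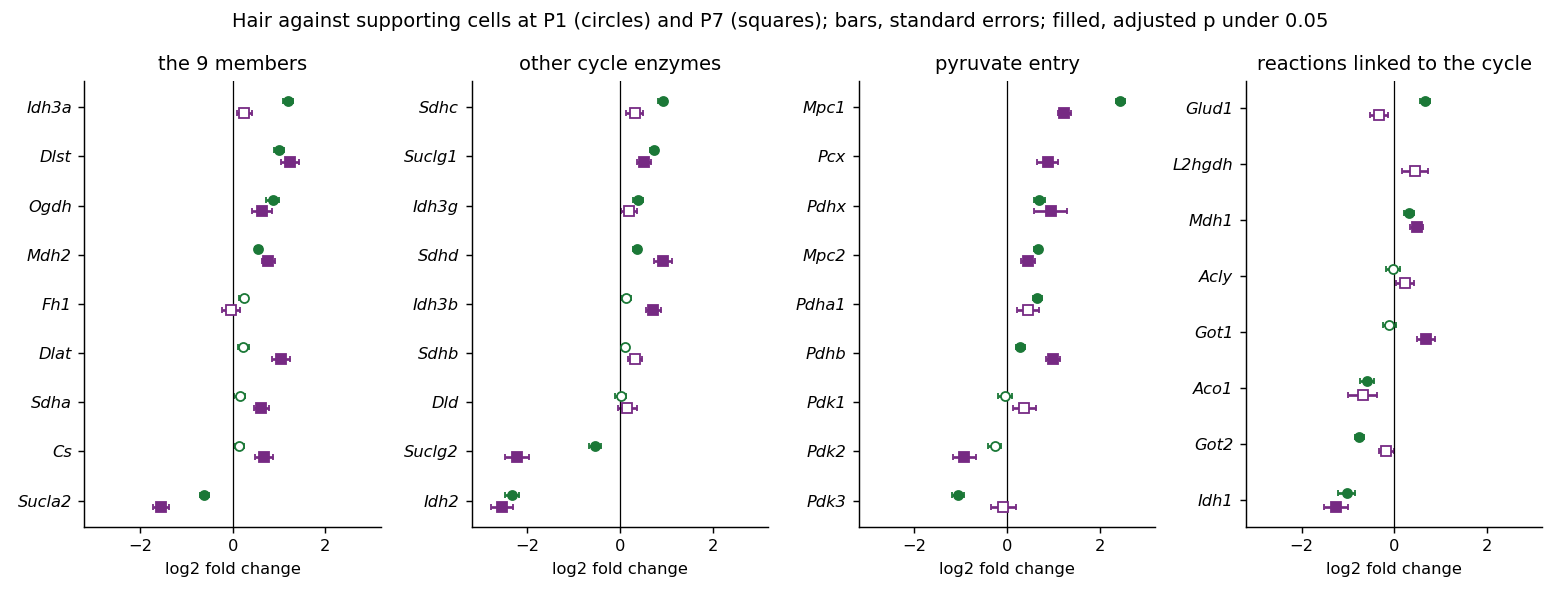
Log2 fold change in hair against supporting cells at P1 (circles) and P7 (squares) for the members and for genes of the other cycle enzymes, pyruvate entry and linked reactions that are reported here. Bars are standard errors from limma, and filled symbols passed an adjusted p of 0.05. Sucla2, Suclg2 and Idh2 lie left of 0 at both ages, and Mpc1 at P1 (2.44) lies farthest to the right.

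Over whole libraries, which mix all classes, E14 can be set beside the later ages. Mdh2 was 474 and 484 CPM in the E14 libraries, 288, 315 and 387 CPM in those of E16, 426, 477, 477 and 477 CPM in those of P1 and 565 and 511 CPM in those of P7. Its E16 libraries lay below those of the other ages. Sdha was 161 and 154, then 105, 99.8 and 105, then 158, 109.7, 103 and 90.3, and then 243 and 196 CPM, highest at P7, and the E16 libraries lay within the range of the P1 libraries. Cs was 109.7 and 124 CPM at E14, above each of the E16 libraries (89.2, 83.4 and 81.5 CPM), and then 64.0, 92.4, 105 and 98.1 CPM at P1 and 100.3 and 95.6 CPM at P7. Sucla2 was 109 and 116 CPM at E14, 75.2, 90.4 and 79.9 CPM at E16, 107, 76.3, 75.3 and 119 CPM at P1 and 137 and 129.6 CPM at P7. Its E16 libraries lay below those of E14, and its P7 libraries above those of every other age. No test was made, since the share of each class differs between libraries.

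The members varied together to different degrees. Over the 27 combinations of class and library, the Pearson correlation of a member with the sum of the other 8 was highest for Mdh2 (0.744) and Idh3a (0.705), between 0.444 and 0.586 for Dlst, Dlat, Fh1, Cs, Ogdh and Sdha, and negative for Sucla2 (-0.390). Among 3453 genes of at least 50 CPM outside the lists, those whose levels followed the sum of the 9 most closely were Ormdl3 (0.930), Serinc3 (0.919), Cltb (0.918), Hagh (0.902) and Atp5b (0.901). Mdh2 is the largest part of the sum, with a mean of 767 CPM in P1 HCs where the sum averaged 1557 CPM. Correlations with a sum that holds Mdh2 therefore weigh it most. These correlations are descriptions over 27 points that share libraries, ages and depth.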

How the data were processed

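Per the labels and the study's methods, cochlear ducts of wildtype CD1 mice were dissociated and captured on the 10x Chromium system. Per the submitters' processing notes, the tools and build included Cell Ranger 2.1.1, Seurat 2.0 and mm10. Per the study's methods, cells with a high share of mitochondrial or stress genes were excluded from its analysis. The levels given here thus describe cells kept after such filters, and the part of this selection was not tested. The authors deposited, per age, a table of natural log values, ln(1 + 10000 times the share of the cell's UMIs), from which UMIs were worked back. Libraries hold 3828399 to 23523802 UMIs, and counting error adds to the spread of genes with few.

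For each class and library of at least 5 cells, CPM was averaged over cells. Cell classes came from counts of detected markers, as given in the report. Log2(CPM + 10) was fitted with limma 3.58.1 in R 4.3.3, with a mean trend, for genes of mean 10 CPM or more. Library was a block within an age, and age was a fixed term within a class. All genes were tested, with Benjamini-Hochberg adjustment and a threshold of 0.05, and the added 10 CPM understates fold changes of low genes. With 2 to 4 libraries a group, p-values between ages measure the spread between pooled collections. Within an age the library block takes that spread out, and p-values measure how far differences between classes vary over libraries. HCs, SCs and other cells of an age shared this spread in 1 fit. The fits were tested on simulated data. Alternatives changed the pseudocount to 1 CPM, the filter, the averaging, the scaling, the gates, the block and the libraries used.

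The 9 members and the other lists were chosen with earlier results of these data known. All members are named. For the other cycle genes, pyruvate entry and linked reactions, the 2 highest and 2 lowest in HCs against SCs at P1 are named, with other subunits of members' complexes. A gene that this rule names is not reported here. The 5 genes most like the members were taken by Pearson correlation. E14 was compared only as whole libraries. Python 3.11.15 was used for the tables.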

Additional observations from a re-analysis of the deposited data

Results flagged for a closer look

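In 45 groups of 4 P1 libraries, 3 had a library farther from its nearest neighbour than Dixon's 95% limit allows, and chance gives about 1 in 20 such groups. Sdha in P1 HCs was highest in library 1, at 147 CPM, against 95.2 to 104 CPM in the other libraries, and library 1 was also highest in SCs (146 CPM) and other cells (162 CPM). Dlst in P1 IHCs was highest in library 4, at 175 CPM, against 108 to 118 CPM. Dlat in P1 IHCs was lowest in library 3, at 39.9 CPM. The difference between HCs and SCs in Sucla2 changed from P1 to P7 by -0.93 on the log2 scale in limma (adjusted p = 0.0414), a call that any left-out P1 or P7 library removes.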

How the results depend on the processing

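Over 37 called results for single members, 528 alternative values gave 435 with the same call, 93 that no longer passed and 0 of opposite sign, and 16 of the 37 passed in every alternative run. Counts of called members were compared over 20 comparisons, and 225 of 295 alternatives left them within 1.5 times. The cause of the changes was not tested. HCs against SCs at P1 had 5 called members, and 5 without any 1 library. At E16, with 2 called, HCs against SCs gave 0 with no filter, with stricter gates, with gates at 1500 UMIs and with no library block, and 4 with means of the log values. HCs against other cells at E16, also 2, gave 4 with log means, 0 with stricter gates or gates at 1500 UMIs, and 1 with no library block. SCs against other cells at P1, with 2, gave 1 with pooled CPM, median-ratio scaling, looser gates, gates at 1500 UMIs or without cells of more than 3000 genes, and 0 with no library block. At P7, with 0, it gave 1 with median-ratio scaling, stricter gates or without other cells of 3 or more mesenchyme, glia or blood markers, and 3 with gates at 1500 UMIs. OHCs against IHCs gave, at P1 (1 called), 0 with no filter or no library block, and at P7 (0 called), 1 with log means or without cells of more than 3000 genes. From E16 to P1, HCs (1 called) gave 0 with no filter or median-ratio scaling, 2 with pooled CPM and 4 with log means, and other cells (0 called) gave 3 with log means. From P1 to P7, HCs (1 called) gave 2 with pooled CPM, median-ratio scaling or stricter gates, and 3 with log means. The change of the difference between HCs and SCs gave 2 with log means from E16 to P1 (0 called). From P1 to P7 (1 called) it gave 0 with a pseudocount of 1 CPM, stricter gates, gates at 1500 UMIs or without cells of more than 3000 genes, 2 with looser gates and 3 with log means.

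Leaving out 1 library gave 0 to 2 called in HCs against SCs and against other cells at E16, 6 to 7 in HCs against other cells at P1, 4 to 6 and 3 to 4 in HCs against SCs and other cells at P7, and 0 to 1 in SCs against other cells and OHCs against IHCs at P1. From E16 to P1 it gave 0 to 2 in HCs, 0 to 1 in other cells and 0 to 1 for the change of the difference, and from P1 to P7 0 to 3 in HCs, 0 to 4 in other cells and 0 to 0 for the change of the difference. In the remaining comparisons (SCs against other cells and OHCs against IHCs at E16 and P7, and SCs between ages) it gave 0 to 0. In age comparisons, replicate numbers 1 to 3 are shared by E16 and P1. Libraries of 1 number correlated at -0.303 to 0.126 in their deviations, so the numbers were not taken to pair libraries, and with a replicate block HCs had 1 called member, SCs 0, other cells 0 and the change of the difference 0, as without it. Without a P7 library the lone library was assumed to vary like those of other ages. At 12 to 46 IHCs or OHCs per E16 library, differences of the size seen at P1 may not be detectable.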
